A study of Mus musculus with 4 samples.

Results

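Granins are acidic proteins that are packed into the dense-core granules of neurons and endocrine cells, and the prohormone processing enzymes are the proteases, with their chaperones and inhibitors, that trim granins and peptide hormone precursors inside those granules. Binding of the transcriptional repressor REST was examined at 10 such genes in mouse embryonic stem cells (ESCs): the granins Chga, Chgb, Scg2, Scg3 and Vgf, the convertases Pcsk1 and Pcsk2, the carboxypeptidase Cpe, and Scg5 and Pcsk1n, which encode binding partners of the convertases. The genes were listed by name for their role in the pathway, out of 22367 protein-coding genes of the annotation, and no value of a region entered the rule. The list was, however, made with earlier results of these data known. Shares set beside those of all genes are therefore descriptions and not an unbiased test. For each gene, every REST-bound region was taken whose midpoint lay in the gene or at most 20 kb from 1 of its transcription start sites (TSSs). Of the 10 genes, 9 had such a region, and together they had 12 of the 2504 regions listed.

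The series comprised 4 samples. The one analysed here was REST chromatin immunoprecipitation followed by sequencing (ChIP-seq) from N6 wild type ESCs of the C57BL/6 strain, a single line kept in medium with leukemia inhibitory factor on irradiated fibroblasts and moved off them by 3 passages on gelatin. H3K27me3 from wild type cells, H3K27me3 from N8 REST-/- cells and input DNA were not analysed here. Replicate immunoprecipitations had been pooled into 1 library, so no region has a replicate, a spread or a test between samples, and every comparison below is a description within 1 list. Regions carried no value other than a rank, 1 being the most strongly enriched. The depth behind a region was unknown, and a gene without a listed region is not thereby shown to be unbound.

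Peptide hormones and neuropeptides are made as large precursors. Convertases cut the precursor after pairs of basic residues, the carboxypeptidase removes the basic residues left at the cut ends, and the products stay in dense-core granules, which granins help to form, until a stimulus releases them. Neuroendocrine cells depend on this pathway, whereas embryonic stem cells are not a secretory cell type of this kind. REST binds a DNA element termed RE1, which consists of a left and a right element, and recruits enzymes that silence chromatin at neuronal and neuroendocrine genes. Several granin and convertase genes are long known to carry RE1s.

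The RE1 consensus was learned from the 2491 listed regions that did not belong to these genes. It had a left element of 9 bases, 2 free bases and a right element of 10 bases, 21 bases in all of which 19 were defined. A stretch with at most 5 mismatches among the 19 defined bases on either strand was counted as a full RE1. The best full RE1 of each region is printed here because the genes are compared through it below. Each is read 5' to 3' on the strand given in brackets, capitals mark bases that match the consensus, and lower case marks mismatches and the free bases. Coordinates are mm9 and count from 1.
RE1 consensus: TTCAGCACCnnGGACAGCGCC
Chgb, rank 34, chr2:132607530-132607550 (+): TTCAGCACCccGGACAGCtCC
Vgf, rank 149, chr5:137506144-137506164 (-): TTCAGCACgctGGACAGCGCC
Chga, rank 184, chr12:103793448-103793468 (+): TTCAGCACCtcGGACAGCaCC
Chga, rank 674, chr12:103788904-103788924 (+): TTCAGgACCacGGACAGCGaC
Cpe, rank 1147, chr8:67140334-67140354 (-): aTCAGCACCctGGACAaCGCC
Pcsk2, rank 852, chr2:143362413-143362433 (+): gTCAGCACCacGGACAGaGCt
Vgf, rank 225, chr5:137507098-137507118 (-): aaCAGtACCgaGGcCAGCGCC

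In 3 further regions a left and a right element lay on the same strand at another spacing, so that no full RE1 was counted. They are shown with the bases between the elements in lower case. That of Pcsk1 was a pair only when its right element was allowed 2 mismatches instead of 1.
Scg3, rank 120, chr9:75531750-75531776 (-): TTCAGCACCcgcggggcGGACAGCGCC
Scg2, rank 296, chr1:79436600-79436618 (+): TTCAGCACCGGACAGCtCC
Pcsk1, rank 957, chr13:75226223-75226248 (-): TTCAGCACCgatgtgtGGACAGCGat

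Taken by role as grouped here, the granin genes had the better ranks. This grouping counts Scg5 and Pcsk1n as binding partners of the convertases and not as granins, and the contrast depends on it. All 5 genes classed here as granins were bound, at best ranks of 34 for Chgb, 120 for Scg3, 149 for Vgf, 184 for Chga and 296 for Scg2. Of the 5 genes for convertases, carboxypeptidase and binding partners, 4 were bound, at best ranks of 259 for Pcsk2, 498 for Scg5, 957 for Pcsk1 and 1147 for Cpe. Pcsk2 was the only one of these 4 whose best rank fell within the range of the granins.

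Chgb, which encodes chromogranin B, an abundant granule matrix protein, held the best rank of all 10 genes. Its region of rank 34 (chr2:132607194-132607814) was 621 bp wide, and 30 of the 2504 regions were at least that wide. The midpoint lay 489 bp downstream of the TSS, in the coding part of exon 1. The gene (ENSMUSG00000027350.7) spans chr2:132607014-132620815 on the plus strand. Its RE1 began at base 12 of intron 1, just past the exon that carries the start codon, and differed from the consensus by 1 base, G19T, counted from 1 at the 5' end of the element.

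Chga encodes chromogranin A, a granin that promotes granule formation and is the precursor of several bioactive peptides. It had 2 regions, of ranks 184 and 674, 4.53 kb apart between midpoints. The region of rank 184 (chr12:103793323-103793625) lay 294 bp downstream of the TSS, and its RE1, with the single mismatch G19A, began at base 68 of intron 1. The region of rank 674 (chr12:103788796-103789087) lay 4.24 kb upstream of the TSS in intergenic sequence, and its RE1 had 2 mismatches. Both elements were on the strand of the gene (ENSMUSG00000021194.5, chr12:103793179-103803237, plus strand). The RE1s of Chga and Chgb were alike in position. Both lay at the start of intron 1 in the direction of transcription. Their single mismatches were both at position 19, where 41.1% of aligned sites elsewhere carry the consensus base, and the bases there differed. Of their 21 bases 19 were identical, the highest number among the 21 pairs of best full RE1s in these regions (range 13 to 19). Any 2 elements with 1 mismatch each to the same consensus must share most of its defined bases. The Vgf element of rank 149, also with 1 mismatch, shared 17 bases with that of Chga at rank 184 and 18 with that of Chgb. Whether the likeness has a further source was not tested.

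Vgf encodes a granin-like secretory protein, induced by nerve growth factor, that is cleaved into several neuropeptides. Its regions, of ranks 149 and 225, lay 0.903 kb apart. The region of rank 149 (chr5:137506036-137506355) spanned the TSS of the gene (ENSMUSG00000037428.8, chr5:137506165-137509221, plus strand). Its RE1 lay on the minus strand and ended at the last base before the TSS, with the single mismatch C9G. The 100 bases upstream of the TSS are printed with the RE1 in capitals, as it appears on the plus strand, because this was the only one of the 10 genes with a full RE1 in the window from 250 bases before to 50 after a TSS.
Vgf, chr5:137506065-137506164 (+): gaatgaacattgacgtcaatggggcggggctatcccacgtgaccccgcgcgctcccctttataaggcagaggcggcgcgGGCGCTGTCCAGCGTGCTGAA

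Among all protein-coding genes, 3.62% had a full RE1 in that window and 0.188% had one with at most 3 mismatches. The second Vgf region (rank 225, chr5:137506914-137507283) lay 933 bp downstream in a coding exon and held 2 full RE1s, with 4 and 5 mismatches. It was the only one of the 12 regions with more than 1 full RE1, against 3.83% of all listed regions. Matches this weak were seldom in a listed region elsewhere in the genome: 8.62% of those with 4 mismatches and 1.02% of those with 5 were.

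Scg3, which encodes secretogranin III, a granin that binds cholesterol-rich granule membrane, had 1 region of rank 120 (chr9:75531630-75531965). Its midpoint was 6 bp from the TSS of the gene (ENSMUSG00000032181.6, chr9:75491071-75531803, minus strand), the smallest distance among the 12 regions. It held both elements without a mismatch, but 8 bases apart instead of 2. The pair lay in the 5' UTR on the strand of the gene.

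Scg2 encodes secretogranin II, the precursor of secretoneurin. Its region of rank 296 (chr1:79436457-79436769) had its midpoint 47 bp upstream of the nearer of the 2 annotated TSSs of the gene (ENSMUSG00000050711.5, chr1:79431244-79436665, minus strand). The midpoint still lay within the gene, because the other TSS is farther upstream. From that other TSS, the pair of elements began 47 bases downstream, within an exon 1 of 135 bp. The left element had no mismatch and the right element 1, and no base separated them. Only 7 of the 2504 regions held such a pair with no gap, which makes this the rarest spacing found among these genes. As in Vgf, the pair lay on the strand opposite to the gene.

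Pcsk2, the convertase that completes the processing of many neuropeptides, had 2 regions 10.4 kb apart. The region of rank 259 (chr2:143372580-143373114) was 535 bp wide, the second widest after that of Chgb. It lay 839 bp downstream of the nearer of the 2 annotated Pcsk2 TSSs, in intron 1. No full RE1 was found in it. It held a left element with 1 mismatch (chr2:143372971-143372979) and no right element with at most 1 mismatch. That class took 10.9% of all listed regions but also 7.35% of the flanking windows. A right element with 2 mismatches, GGACAGCagC, lay on the same strand at chr2:143372678-143372687, too far from the left element to be a pair. The best match to the whole RE1 in this region included that right element. It had 6 mismatches, over the limit of 5 for a full RE1. The region of rank 852 (chr2:143362313-143362579) lay 9.45 kb upstream and held an RE1 with 3 mismatches. Both regions also overlapped exons of C630020P19Rik, a long intergenic noncoding RNA annotated on the opposite strand at chr2:143361212-143373573. Its 2 TSSs lie 179 bp upstream and 1681 bp downstream of the more upstream Pcsk2 TSS. The downstream one is nearer to the midpoint of the rank 259 region than either Pcsk2 TSS. A region here cannot be assigned to one of these genes over the other. Pcsk2 itself (ENSMUSG00000027419.9) spans chr2:143371892-143642021 on the plus strand.

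Scg5 encodes a chaperone that the Pcsk2 enzyme needs to mature and that also inhibits it. Its region of rank 498 (chr2:113669078-113669416) spanned a TSS, with the midpoint 32 bp downstream in the 5' UTR of the gene (ENSMUSG00000023236.7, chr2:113616519-113669278, minus strand). Neither a full RE1 nor an element with at most 1 mismatch was found there, as in 17.4% of listed regions and 90.9% of flanking windows. The nearest approach to an element was a right element with 2 mismatches. Scg5 and its client Pcsk2 were thus the genes whose best region held no pair of elements, even with 2 mismatches allowed in the right element.

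Pcsk1 encodes the convertase that makes the first cuts in precursors such as proinsulin and pro-opiomelanocortin. Its only region (rank 957, chr13:75226130-75226429) lay 995 bp upstream of the nearest TSS of the gene (ENSMUSG00000021587.4, chr13:75227274-75269946, plus strand). It held a left element with no mismatch and, 7 bases away on the same strand, a right element with 2 mismatches. Under that looser limit for the right element, 34 listed regions and 1 of the 5006 flanking windows held a pair 7 bases apart. The 300 bases of the region are printed on the plus strand, with the right and then the left element in capitals, because this pair was not found under the limit of 1 mismatch that was used for the other genes.
Pcsk1, chr13:75226130-75226429 (+): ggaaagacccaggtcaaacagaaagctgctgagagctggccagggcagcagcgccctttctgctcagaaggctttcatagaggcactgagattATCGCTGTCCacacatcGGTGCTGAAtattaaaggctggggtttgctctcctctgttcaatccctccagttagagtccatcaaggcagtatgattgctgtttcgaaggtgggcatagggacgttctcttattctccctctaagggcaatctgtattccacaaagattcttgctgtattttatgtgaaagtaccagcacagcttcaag

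Cpe, the carboxypeptidase that trims the ends left by the convertases, was the one bound gene whose region lay far from a TSS. Its region of rank 1147 (chr8:67140257-67140547) lay 31.4 kb downstream, in an intron of the gene (ENSMUSG00000037852.7, chr8:67071355-67171837, minus strand). The region held an RE1 with 2 mismatches on the strand of the gene. It was also the poorest in CpG of the 12, with a ratio of observed to expected CpG of 0.07, and the poorest in G and C, at 43.3%. Its 291 bases are printed on the plus strand with the RE1 in capitals, as the one case here of an RE1 deep within a gene.
Cpe, chr8:67140257-67140547 (+): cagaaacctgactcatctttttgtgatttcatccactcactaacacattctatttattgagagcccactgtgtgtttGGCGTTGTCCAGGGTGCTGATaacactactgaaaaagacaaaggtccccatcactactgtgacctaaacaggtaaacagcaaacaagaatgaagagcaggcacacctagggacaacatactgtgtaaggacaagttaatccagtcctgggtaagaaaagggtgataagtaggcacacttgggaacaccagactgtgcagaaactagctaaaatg

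Pcsk1n, which encodes an inhibitor of the Pcsk1 enzyme, was the one gene with no listed region. It lies on the X chromosome (ENSMUSG00000039278.9, chrX:7496948-7501536, plus strand). The nearest region, of rank 342 (chrX:7372228-7372540), lay 125 kb upstream in an intron of Gripap1, 3.19 kb from a TSS of that gene, and held an RE1 with 3 mismatches. In the gene and within 20 kb of its TSSs, the genome sequence had 2 full RE1s, both with 5 mismatches. The X chromosome carried 23 listed regions, and 26 of its 932 protein-coding genes (2.79%) had a region under the same rule, against 10.5% of genes on the other chromosomes.

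**Figure D1:**
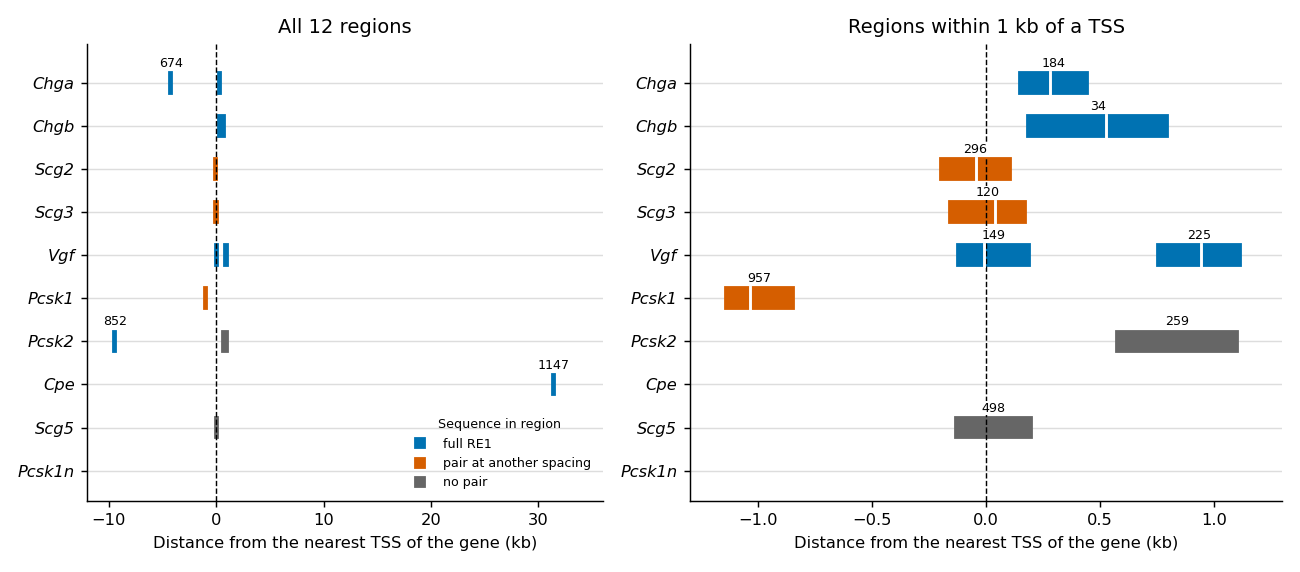
Position of each REST-bound region relative to the nearest TSS of its gene, in kb, with downstream to the right; bars are drawn to scale, numbers are ranks, colours give the RE1 content, and white lines in the right panel mark the element or pair. The left panel shows all 12 regions and the right panel the 9 within 1 kb of a TSS, which come from 8 genes. Pcsk1n has none. The pair of Pcsk1 has 2 mismatches in its right element, over the limit of 1 used for the other pairs.

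The regions were gathered at the start sites. Within 1 kb of a TSS lay 9 of the 12 regions, belonging to 8 of the 10 genes, whereas 1.83% of all protein-coding genes had a region that near. Those of Scg2, Scg3, Scg5 and the rank 149 region of Vgf spanned a TSS. By the wider rule, 9 of the 10 genes had a region beside 10.1% of all protein-coding genes, and 3 of them (Chga, Vgf and Pcsk2) had 2 regions beside 1.48%. No TSS of another protein-coding gene was nearer to any of the 12 regions than that of the gene to which it was assigned. Other protein-coding genes had a TSS within 20 kb only of the Vgf regions (Ap1s1, at 7.33 and 6.42 kb) and the Scg5 region (Arhgap11a, at 19.2 kb).

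Binding at these genes ranked high within the list. The median of the best ranks of the 9 bound genes was 259, with a range of 34 to 1147, and the median over all 2269 protein-coding genes with a region was 1170. Within the first 626 ranks lay the best region of 7 of the 9 genes, beside 27.6% of all genes with a region. The best ranks of Pcsk1 and Cpe, at 957 and 1147, were closer to that overall median than to the ranks of the granins. For comparison by position, the 9 regions of these genes within 1 kb of a TSS had ranks from 34 to 957, and the 404 regions within 1 kb of a TSS of any protein-coding gene had a median rank of 970.5.

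**Figure D2:**
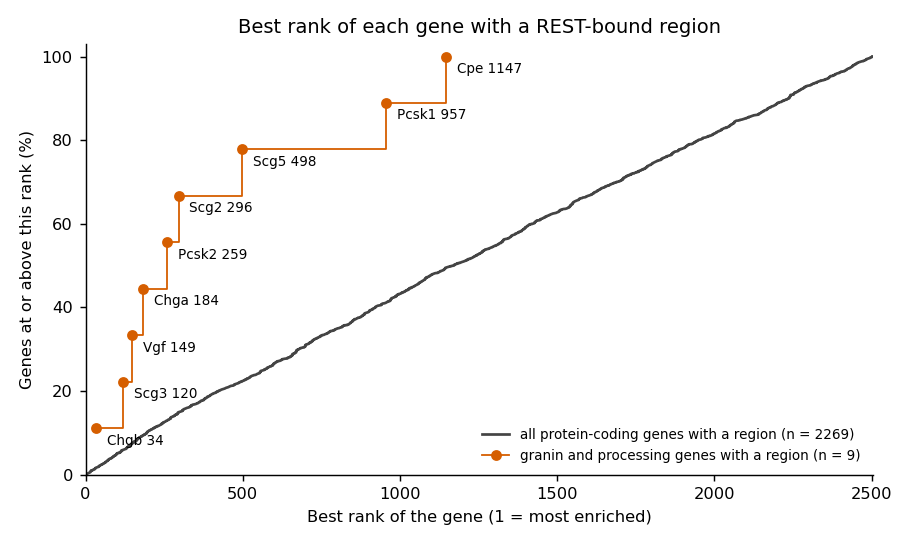
Cumulative share of genes (%) by the best rank of their regions, where 1 is the most enriched, for all 2269 protein-coding genes with a region (line) and the 9 granin and processing genes with one (labelled points with their ranks). The labelled genes reach 100% at rank 1147 and 7 of the 9 lie at or above rank 498.

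In base composition the regions were closer to other bound promoters than to the list as a whole. Their median content of G and C was 56.7% (43.3% to 67.6%), beside 51.6% for all listed regions and 59.2% for the regions within 1 kb of a TSS. The ratio of observed to expected CpG had a median of 0.59, beside 0.25 for all listed regions and 0.57 for those within 1 kb of a TSS. Their median width was 316.5 bp, ranging from 267 to 621 bp, and that of all regions was 264 bp.

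A full RE1 was present in 7 of the 12 regions and in 5 of the 10 genes (Chga, Chgb, Vgf, Pcsk2 and Cpe), near the share among all listed regions, 58.1%. In flanking windows of the same width 2 kb away, that share was 0.899%. Of the matches found, the best were close to the consensus: 6 of the 12 regions had a best match with at most 3 mismatches, beside 30.8% of all regions. The distance between the best element and the midpoint of its region had a median of 28 bp in these 7 regions, with a maximum of 58 bp, and of 24 bp over all regions with a full RE1. High rank and a good match did not always coincide. Chgb, Vgf and Chga had 1 mismatch each and ranks from 34 to 184, but Scg3 ranked 120, Pcsk2 259 and Scg2 296 with no full RE1.

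**Figure D3:**
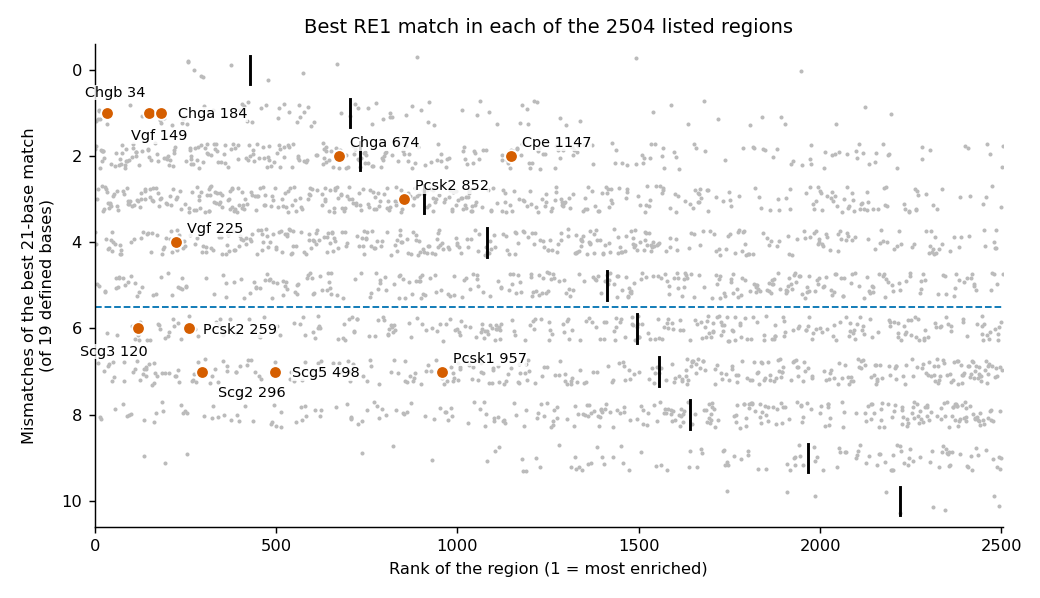
Mismatches of the best 21-base match among 19 defined bases (vertical axis, fewer at the top) against the rank of the region, for all 2504 listed regions (grey, spread vertically so that points can be seen); black bars are median ranks and the dashed line is the limit for a full RE1. The 12 labelled regions lie at ranks 34 to 1147, and 5 of them, those of Scg3, Pcsk2, Scg2, Scg5 and Pcsk1, fall below the limit.

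Among all regions, the median rank worsened as mismatches increased, being 427.5 with no mismatch, 703 with 1, 732.5 with 2, 909 with 3, 1083 with 4 and 1412 with 5. The elements of Chgb, Vgf and Chga ranked above the median of their class, at 34, 149 and 184 against 703. The element of Cpe, at rank 1147 with 2 mismatches, ranked below the median of its class, and that of the upstream Chga region, at 674, was near it.

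The 7 best elements had 14 mismatches in all, and 7 of these fell at the 3 positions that vary most elsewhere. Of the 19 defined positions, the 3 with the lowest share of the consensus base among the aligned sites of other regions were 19, 1 and 6, at 41.1%, 44.5% and 52.9%. At these positions the consensus base was found in 5, 4 and 5 of the 7 best elements. All 7 elements carried the consensus base at positions 3, 4, 5, 7, 8, 12, 13, 15 and 16, and the guanine at position 12, the guanine at 13 and the adenine at 16 are held by 97.6%, 98.9% and 98.9% of the aligned sites.

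Pairs of elements occurred at a limited set of spacings. On 1 strand, with at most 1 mismatch in each element and 0 to 30 bases between them, 14.3% of listed regions held a pair and none of the 5006 flanking windows did, a count of 0 that allows a share of up to 0.0599%. The 2 base gap was found in 226 regions, among them 5 of these genes' regions (Chgb, Cpe, both of Chga, and Vgf at rank 149). Gaps of 7 to 11 bases were found in 4.43% of regions, with a maximum of 39 regions at 8 bases, the gap of Scg3. Gaps of 3 to 6 bases were found in none. The pairs of Scg3, at 8 bases, and Scg2, with none, thus lay at spacings that recur in the list, the first commonly and the second in 7 regions.

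**Figure D4:**
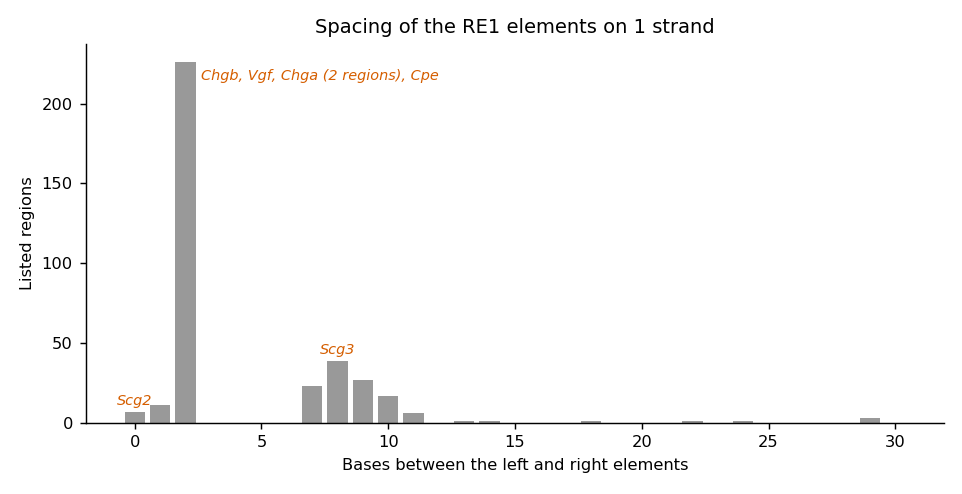
Number of listed regions (vertical axis) with a left and a right element on 1 strand, at most 1 mismatch in each, by the number of bases between the elements (horizontal axis, 0 to 30); names mark regions of the granin and processing genes. Most pairs are 2 bases apart (226 regions), a second group lies at 7 to 11 bases with Scg3 at its peak (39 regions), and Scg2 has no gap (7 regions).

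Every good match to the RE1 in these loci lay in a listed region. In the genes and within 20 kb of their TSSs, the genome sequence held 6 matches with at most 3 mismatches, and all 6 lay in regions (2 of Chga, and 1 each of Chgb, Vgf, Pcsk2 and Cpe). Genome-wide this held for 62.5% of such matches, but 860 of those 1295 had 3 mismatches. Of the 6 in these loci, 3 had 1 mismatch, 2 had 2 and 1 had 3, so the 62.5% is not a like comparison. By number of mismatches the genome-wide share was 94.4% with 1, 85.9% with 2 and 49.5% with 3. Of the weaker matches in these loci, the 1 with 4 mismatches and 1 of the 20 with 5 lay in a region, both of them in the Vgf region of rank 225. The loci of Scg3, Pcsk1, Scg5 and Pcsk1n held only matches with 5 mismatches, and none of those lay in a region. That of Scg2 held no full RE1 at all.

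**Figure D5:**
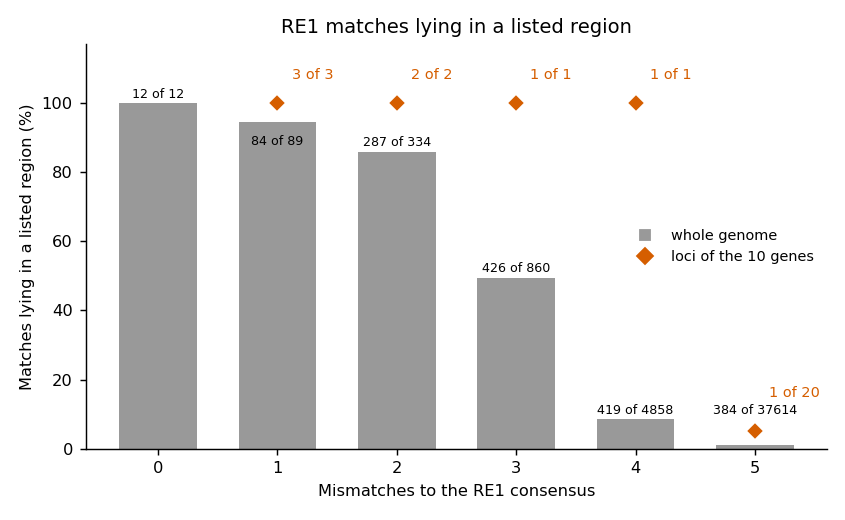
Share of RE1 matches that lie in a listed region (%), by number of mismatches, for the whole genome (bars, with counts) and for the loci of the 10 genes (diamonds, with counts). In the loci all 6 matches with 1 to 3 mismatches and the 1 with 4 lie in a region, but 1 of the 20 with 5 mismatches does.

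A cyclic AMP response element (CRE), through which many neuropeptide genes are activated, was searched for as the letters TGACGTCA, a motif that reads the same on both strands and overlaps no RE1 match here. It occurred in the window from 250 bases before to 50 after a TSS in 3 of the 10 genes, Scg2, Vgf and Pcsk1, and in 3.08% of all protein-coding genes. In Vgf it was centred 86 bp upstream of the TSS and can be read in the printed sequence. In Pcsk1 it was centred 44 bp upstream, outside the REST-bound region, and in Scg2 it lay at a TSS. A match is a description of the letters only.

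From a list of 40 genes for further convertases, carboxypeptidases, peptide modifying enzymes and granule proteins, 11 (27.5%) had a region by the same rule, beside 10.1% of all protein-coding genes, with a median best rank of 972. The count depended on the distance allowed, since with 5 kb in place of 20 kb it fell to 7 of the 40, beside 6.40% of all protein-coding genes. At 7 of the 11, the best region held a full RE1, and at 5 of them it lay within 1 kb of a TSS. Of the 7 further convertases, only Furin, the widely expressed convertase of the trans-Golgi network, had a region, at rank 554 and 18.4 kb downstream of a TSS, outside the gene, and the rule gave the same region to Fes and Man2a2. Among the 7 carboxypeptidases, Cpz had a region of rank 478 with an RE1 without mismatch 6.17 kb upstream, and Cpxm2 had one of rank 1972. Of 5 further peptide modifying enzymes, Qpctl, a Golgi glutaminyl cyclase, had a region of rank 1538, whereas Pam, which amidates peptides, had none. The rule also gave the Qpctl region to other genes.

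Of the 7 genes for granule membrane and cargo loading, 3 had a region: Ptprn (rank 589) and Ptprn2 (rank 1096), which encode related transmembrane proteins of the granule, and Slc18a1 (rank 1235), a vesicular monoamine transporter. The RE1 of the Ptprn region had 1 mismatch and the region lay 904 bp downstream of a TSS. The regions of Ptprn and Slc18a1 were each given by the rule to another gene as well. Of the 14 genes for granule biogenesis, docking and priming, 4 had a region. Cadps, which primes granules for release, had 3 regions, and the best of them, of rank 306, was intronic and 293 kb from the TSS. Rph3a, a Rab effector, had 2, the best of rank 347 at 111 bp upstream of a TSS. Hid1 had a region of rank 972 that lay 14.6 kb from its nearest TSS, outside the gene and in an intron of another gene, and the same rule also gave this region to Otop2, Otop3 and Ush1g. Rab3d had a region of rank 2219 in intergenic sequence 13.9 kb from a TSS. The best rank of each of the 11 lay below those of the 5 granin genes and of Pcsk2.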

How the data were processed

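REST ChIP-seq from wild type ESCs was analysed (1 of 4 samples). Replicates were pooled before sequencing. The methods name Bowtie and the submitters' processing notes BWA as aligner. Reads were placed on mm9. Tool versions are not given in the sources used here. Per the methods, peaks came from PeakRanger and MACS and those called by both were kept. The deposited list does not say whether it is that shared set. Only uniquely mapped reads were kept, so repeats may be underrepresented. The deposited list gives coordinates and the authors' rank score, without counts. Starts were read as counting from 0 and are printed counting from 1.

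Sequence came from NCBIM37 and gene models from GENCODE M1, both of build mm9. All 20 chromosome names matched and all 2504 regions ended within them. Hid1 was found through its older symbol C630004H02Rik in the RefSeq table (GRCm38.p6). Scripts used Python 3.11.15, NumPy 2.4.6 and Matplotlib 3.10.9. The most enriched word of 8 bases against flanking windows was extended to the RE1 consensus over 10 rounds. In classes of region, elements 3 to 20 bases apart were a pair, and otherwise a left element was counted before a right one. A midpoint within 1 kb upstream of a TSS was annotated as promoter, and otherwise exonic classes took precedence over introns. On simulated data, tested by the same code, all 400 planted elements and all 19 defined bases were recovered.

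The genes and lists were chosen with earlier results of these data known. All 10 genes are named with every region, pathway genes with a region by best rank (at most 4 per group), and neighbouring genes whose TSS was nearer to a region. Ap1s1, Arhgap11a, Pam, Otop2, Otop3, Ush1g, Fes and Man2a2 were added after their values were seen. Alternatives for distance, TSSs, rank and mismatches are given in the closing section. No paired analysis was possible because there was 1 library.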

Additional observations from a re-analysis of the deposited data

How the results depend on the processing

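Of 31 alternative values for 6 results, 30 stayed within 1.5 times the reported value, although some of them could not move. The exception was the count of other pathway genes with a region, which fell from 11 to 7 of 40 when the distance from a TSS was 5 kb, while the share of all protein-coding genes fell from 10.1% to 6.40%. Under the other distances, TSS sets, the better ranked part of the list and any overlapping base, 8 or 9 of the 10 granin and processing genes kept a region, Cpe being lost when the gene body was not counted, and the median of the best ranks was 259 or 221.5. Genes with a full RE1 numbered 5 to 6 under the planned limits, widths and start conventions. They numbered 7 when pairs at other spacings were also counted, an alternative chosen after seeing the data. RE1 matches in the loci that lay in a region fell from 6 to 4 when only 5 kb around a TSS was searched. All regions of the granin and processing genes ranked 1147 or better. Keeping only the first 1252 ranks therefore could not change the values of these genes. With 1 pooled library and no read counts per region, none of these values has a measured error. No paired analysis was possible because the series gave 1 REST library.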
